A study of Homo sapiens with 6 samples.

Results

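Peroxisome genes were followed in MDA-MB-231, an established human breast cancer line of the triple-negative kind with mesenchymal traits, after 48 h with 50 µM TCI04 or with phosphate-buffered saline (PBS). The set held 31 genes for peroxisome assembly and peroxisomal enzymes. Each gene was represented by the probe set, among those annotated to that gene alone, with the highest mean signal over the 6 arrays. Of the 31 genes, 29 had such a probe set, among 19775 genes with one, and the signals of these 29 are described here. The expression of PEX13 and SCP2 was not analysed here, and both enter only the promoter search. The choice of probe set used the mean over both groups and not the difference between them, but the gene set was proposed with results of these arrays in view. TCI04 is known here only by its code name. Both groups were the same cell line in serum-containing medium, with 3 arrays each, and nothing in the labels ties each array to a culture of its own. The p-values therefore reflect how far these 6 arrays scatter, which may be a technical spread. In RNA from a whole culture, fewer expressing cells and less RNA per cell cannot be told apart.

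Peroxisomes are small organelles bounded by a single membrane that shorten very-long-chain and branched fatty acids, start the synthesis of ether lipids and break down hydrogen peroxide. Their membrane and import machinery is built from proteins called peroxins (PEX). Cytosolic receptors carry folded enzymes to a docking complex on the membrane, release them inside, and are then tagged with ubiquitin and pulled back out by an ATP-driven complex. Nuclear receptors of the PPAR family are known to raise several of these genes, most clearly in rodent liver.

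The values were MAS5 signals on a linear scale, which had the same trimmed mean of 500.1 on all 6 arrays. Differences are given as log2 fold changes, TCI04 minus PBS, of the signal plus 10.96, from a limma fit across 32746 probe sets, of which the brightest of each of 13679 genes were compared with the members. A signal depends on its probes, so signals of different genes are not set against each other. Markers of the line were bright, with VIM at 26220 or more on every array and AXL at 17610 or more. Of 8 luminal and receptor genes, PGR, CDH1 and TFF1 lay below the filter on dim probe sets, while 5 passed it. GATA3 ranged from 683 to 995, ERBB2 from 400 to 525 and EPCAM from 340 to 454. FOXA1 ranged from 85.6 to 138 and ESR1 from 18.5 to 94.3. Markers of other cell types were mostly dim, but each list held genes past that filter. These were 2 of 5 leukocyte and blood genes (HBB from 163 to 229, CD3E from 39.4 to 117), 2 of 4 endothelial genes (PECAM1 from 141 to 191, KDR from 25.1 to 55.1), 2 of 5 fibroblast genes (COL1A1 from 372 to 525, DCN from 34.2 to 88.5), 1 of 4 adipocyte genes (CIDEC from 119 to 189) and 3 of 5 hepatocyte genes (TTR, SERPINA1 and CYP3A4, at or below 159). The smallest adjusted p among these 10 was 0.697, for CYP3A4 (limma). Among the defining genes below the filter were PTPRC of leukocytes, at or below 34.6, CDH5 of endothelium, at or below 25.9, ADIPOQ of adipocytes, at or below 28.1, and ALB of hepatocytes, at or below 32.3. The summed endothelial signal was 277 to 284 with PBS and 211 to 251 with TCI04, without overlap. The sums of the other 4 lists of other cell types overlapped between groups. The summed signal of the 8 luminal and receptor genes did not overlap either, at 1920 to 2002 with PBS and 1677 to 1876 with TCI04. The part of other cell types in the members' values was not tested. The ratio of 3' to 5' signal of ACTB, a sign of RNA quality, was 3.33 in TCI04 replicate 3 and 1.64 to 1.72 in the other arrays. For GAPDH the same ratio differed less, at 1.21 in TCI04 replicate 3 and 0.97 to 1.08 in the other arrays. Results are also given without TCI04 replicate 3.

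No member passed the adjusted threshold of 0.05 in limma, against 0.00305% of all probe sets tested (1 of 32746). The smallest adjusted p of a member was 0.697. At an unadjusted p under 0.05, 3 of the 29 members stood out, which is 10.3% against 7.05% of all genes. PEX11A and PHYH had higher means (2.9% of all genes were called this way) and PEX16 a lower mean (4.15%). Leaving out 1 array at a time moved the unadjusted limma p of PEX16 between 0.0291 and 0.134, and that of PHYH was 0.0612 without PBS replicate 2. The 2 groups did not overlap for 6 members, 20.7% against 13.6% of all genes: PEX11A, PHYH, HSD17B4 and PEX2 had all TCI04 arrays above all PBS arrays (as did 6.66% of all genes), and PEX16 and PEX26 were lower (6.92%). Without TCI04 replicate 2 there were 11 such members, against 25.4% of all genes. These shares describe a chosen set of genes. A higher mean with TCI04 was found for 17 of the 29 members, 58.6% against 49.4% of all genes.

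The members' median log2 fold change was 0.06, beside -0.002 over all genes. Per array, the members' median relative to the PBS mean was 0.10 in TCI04 replicate 3 but 0.004 and -0.009 in TCI04 replicates 1 and 2, next to -0.03 to 0.0005 in the PBS arrays. Over all genes the same median was also highest in TCI04 replicate 3, at 0.03, with -0.008 and -0.004 in TCI04 replicates 1 and 2. In the PBS arrays it was -0.002 to 0.01. The median of the set was 0.01 without TCI04 replicate 3, 0.02 without PBS replicate 1 and 0.04 without TCI04 replicate 2. It was 0.05 without TCI04 replicate 1, 0.06 without PBS replicate 3 and 0.07 without PBS replicate 2. The members' shift was thus largest in the array whose ACTB ratio stood apart, and the part of RNA quality in it was not tested.

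**Figure D1:**
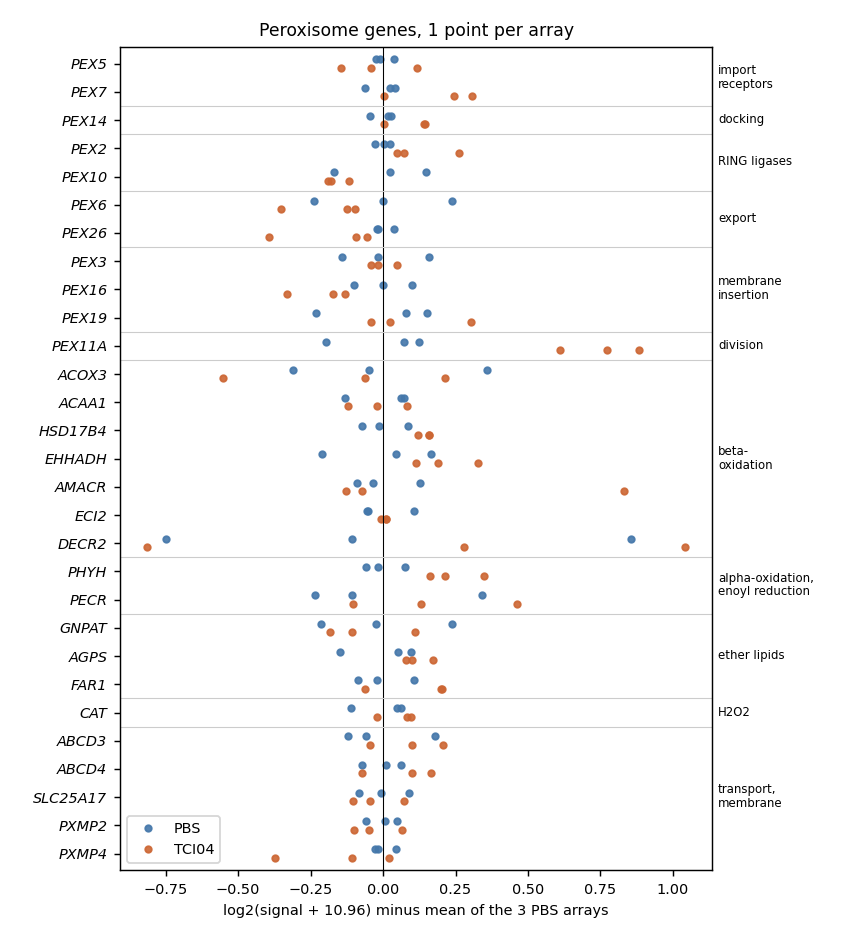
Log2 values of the 29 measured peroxisome genes on each of the 6 arrays, after subtraction of each gene's PBS mean and grouped by role, with PBS in blue and TCI04 in orange. PEX11A is the member whose TCI04 points lie farthest from its PBS points, while DECR2, AMACR and ACOX3 scatter widely within groups.

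PEX11A, a membrane protein that helps peroxisomes elongate and divide, had the largest difference of the 29. Its signal was 201, 159 and 193 in the PBS arrays and 321, 348 and 286 in the TCI04 arrays. The lowest TCI04 array thus stood well above the highest PBS array. The group means, 184 ± 22.4 and 318 ± 31.2 (SD, n = 3 arrays each), gave a ratio of 1.73. On the log2 scale it differed by 0.76 ± 0.15 (standard error), with a 95% interval of 0.42 to 1.09 (limma, adjusted p = 0.697). By unadjusted p it ranked at place 5 of 13679 genes, and by log2 fold change at place 63 from the top. Its other probe set measured 161, 77.6 and 113 with PBS and 168, 162 and 80.5 with TCI04. There the groups overlapped and the log2 fold change was 0.20, with TCI04 replicate 3 among the low arrays. Averaging both probe sets gave 0.48. With the brighter probe set alone, leaving out single arrays gave 0.66 to 0.83, and 0.83 without TCI04 replicate 3.

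Promoter windows are shown for PEX11A, PHYH and PEX16, the members with an unadjusted p under 0.05, to set beside their values. They run from 250 bases before to 50 after the gene start in RefSeq (GRCh38.p14), 5′ to 3′ on the strand of the gene: PEX11A at chr15:89690705-89691004 (minus strand), PHYH at chr10:13299714-13300013 (minus strand) and PEX16 at chr11:45917828-45918127 (minus strand). Capitals mark matches to the motifs searched on both strands.
PEX11A: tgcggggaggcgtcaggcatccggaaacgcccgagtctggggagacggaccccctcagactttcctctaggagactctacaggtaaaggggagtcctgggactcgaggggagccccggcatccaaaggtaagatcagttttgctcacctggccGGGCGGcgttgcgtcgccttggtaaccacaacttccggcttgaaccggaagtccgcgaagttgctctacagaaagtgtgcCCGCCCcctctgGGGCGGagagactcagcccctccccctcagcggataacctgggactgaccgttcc
PHYH: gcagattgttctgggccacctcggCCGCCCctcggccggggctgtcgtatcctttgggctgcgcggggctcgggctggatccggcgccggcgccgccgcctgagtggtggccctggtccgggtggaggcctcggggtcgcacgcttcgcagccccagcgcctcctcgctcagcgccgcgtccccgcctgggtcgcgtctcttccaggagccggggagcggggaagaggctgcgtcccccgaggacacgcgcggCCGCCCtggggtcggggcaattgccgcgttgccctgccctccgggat
PEX16: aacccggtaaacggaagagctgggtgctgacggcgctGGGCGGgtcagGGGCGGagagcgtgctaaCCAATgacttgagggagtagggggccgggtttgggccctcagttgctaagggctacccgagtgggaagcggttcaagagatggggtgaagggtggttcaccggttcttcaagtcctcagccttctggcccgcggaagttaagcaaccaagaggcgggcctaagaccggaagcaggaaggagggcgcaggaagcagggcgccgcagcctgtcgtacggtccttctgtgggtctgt
The motifs were the nuclear receptor half-site AGGTCA, its direct repeat (2 copies of AGGTCA with any 1 base between, which contains the half-site), the CCAAT box CCAAT, the GC box GGGCGG, the cyclic AMP response element TGACGTCA and the AP-1 site TGACTCA. In the 3 windows shown, the capitals are GC boxes and, in PEX16, also 1 CCAAT box. Of the 31 genes, 26 matched the promoter table, with 34 windows. GC boxes were found for 22 of these 26 genes, in 27 of the 34 member windows and in 45.0% of all 35116 windows of the same length. The half-site was found for ABCD4, AGPS and PXMP4, in 3 of the 34 member windows and in 13.8% of all windows. The direct repeat matched 0 member windows and 0.0228% of all windows. An AP-1 site was found for PEX5 and SCP2, in 2 of the 34 member windows and in 4.95% of all windows. The CCAAT box was found for 11 of the 26 genes, in 12 of the 34 member windows and in 34.6% of all windows. The cyclic AMP response element was found for ACOX3, in 2 of the 34 member windows and in 1.85% of all windows. A gene with several windows has more chances of a match than 1 window. The median GC content was 65.3% in member windows and 58.7% in all windows, so a GC-rich motif meets more chances in the former. A match is a description of letters and says nothing of binding.

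**Figure D2:**
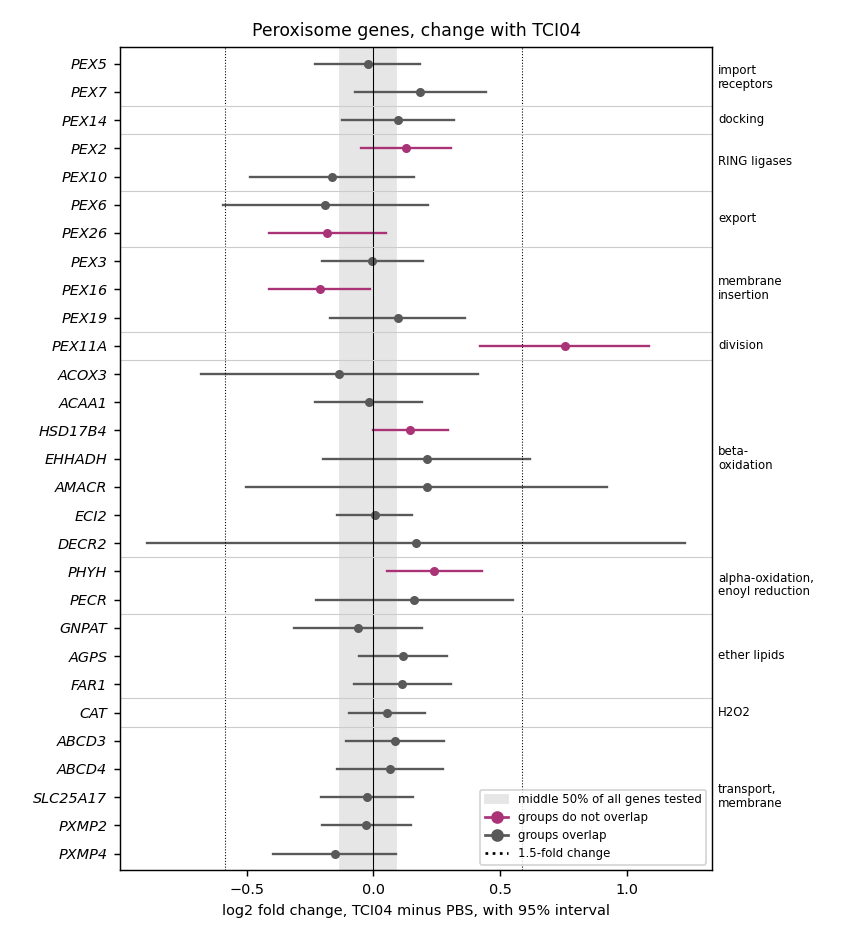
Log2 fold change of each measured peroxisome gene, TCI04 minus PBS, with its 95% interval from limma, by role; purple marks genes whose groups do not overlap, dotted lines a 1.5-fold change and the grey band the middle 50% of all 13679 genes. Most intervals lie between the dotted lines, and the interval of PEX11A from 0.42 to 1.09 lies on the higher side.

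The receptors that collect enzymes in the cytosol are PEX5, which binds a signal at the end of most matrix enzymes, and PEX7, which binds a signal near the start of a few, among them PHYH, AGPS and ACAA1. PEX5 measured 821, 858 and 830 with PBS and 813, 755 and 909 with TCI04. Its TCI04 arrays lay on both sides of the PBS range, and the log2 fold change was -0.02. PEX7 measured 397, 422 and 427 with PBS and 416, 494 and 516 with TCI04. Only TCI04 replicate 1 lay within the PBS range, and the log2 fold change was 0.19 (95% interval -0.07 to 0.44). Its other probe set gave -0.14, from 358, 347 and 344 with PBS and 314, 265 and 380 with TCI04. The probe sets of PEX7 therefore differed in sign.

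PEX14, the central protein of the docking complex, measured 499, 477 and 502 with PBS and 546, 494 and 545 with TCI04. The groups overlapped in TCI04 replicate 2, and the log2 fold change was 0.10. Its other probe sets gave -0.14 and 0.46. The latter came from 14.7, 81.8 and 44.4 with PBS and 50.7, 58.2 and 69.2 with TCI04, all inside the PBS range.

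PEX2 and PEX10 are RING-type ubiquitin ligases that mark the import receptor for removal. PEX2 measured 1349, 1318 and 1368 with PBS and 1391, 1615 and 1416 with TCI04. The groups did not overlap, but the gap between the highest PBS and the lowest TCI04 array was narrow and the difference came largely from TCI04 replicate 2. The log2 fold change was 0.13 (limma, adjusted p = 0.723), 0.06 without TCI04 replicate 2, and -0.05 in its other tested probe set. PEX10 measured 206, 237 and 259 with PBS and 214, 203 and 205 with TCI04, giving a log2 fold change of -0.16 (-0.25 without PBS replicate 1 and -0.09 without PBS replicate 3), against 0.05 in its other probe set. Here TCI04 replicate 1 lay above PBS replicate 1, so the groups overlapped.

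PEX6 is an ATPase that pulls the receptor out of the membrane, and PEX26 is its anchor there. Both had lower means. PEX26 measured 856, 823 and 825 with PBS and 802, 782 and 633 with TCI04. All TCI04 arrays were lower, TCI04 replicate 3 by far the most. The log2 fold change was -0.18 (95% interval -0.41 to 0.05, limma, adjusted p = 0.711), and -0.08 without TCI04 replicate 3. Its other tested probe set gave -0.01. PEX6 measured 210, 176 and 148 with PBS and 161, 164 and 136 with TCI04, giving a log2 fold change of -0.19 with overlapping groups. This was -0.07 without PBS replicate 1, -0.11 without TCI04 replicate 3 and -0.31 without PBS replicate 3. In its other probe set the groups did not overlap, with 116, 112 and 111 against 79.6, 72.7 and 84.2, and a log2 fold change of -0.46 (limma, adjusted p = 0.697).

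PEX3, PEX16 and PEX19 insert proteins into the peroxisomal membrane, with PEX19 as the chaperone, PEX3 as its receptor and PEX16 as the protein that recruits PEX3. PEX16 measured 1255, 1172 and 1093 with PBS and 1039, 1069 and 929 with TCI04. The groups did not overlap, although PBS replicate 3 and TCI04 replicate 2 lay close together. The means were 1174 ± 81.0 and 1012 ± 73.9 (SD, n = 3 arrays each), and the log2 fold change was -0.21 ± 0.09 (standard error), its 95% interval -0.41 to -0.01 (limma, adjusted p = 0.697). A dimmer probe set of the gene, at 189, 144 and 124 against 102, 85.0 and 98.8, did not overlap either and gave -0.60. The remaining probe set gave -0.06 with overlapping groups. PEX16 was thus lower in all 3 probe sets and in 2 of them without overlap. Without TCI04 replicate 3 the brightest probe set gave -0.15.

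PEX3 measured 1200, 1479 and 1309 with PBS and 1287, 1371 and 1307 with TCI04, giving a log2 fold change of -0.004. Its next probe set, at 1006, 1028 and 1003 against 1101, 1115 and 1107, did not overlap and gave 0.13, while the third gave -0.16. No direction can be read for PEX3 from probe sets that disagree. PEX19 had means of 1246 ± 170 and 1331 ± 176 (SD, n = 3 arrays each), a log2 fold change of 0.10, and 0.03 in its other probe set.

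**Figure D3:**
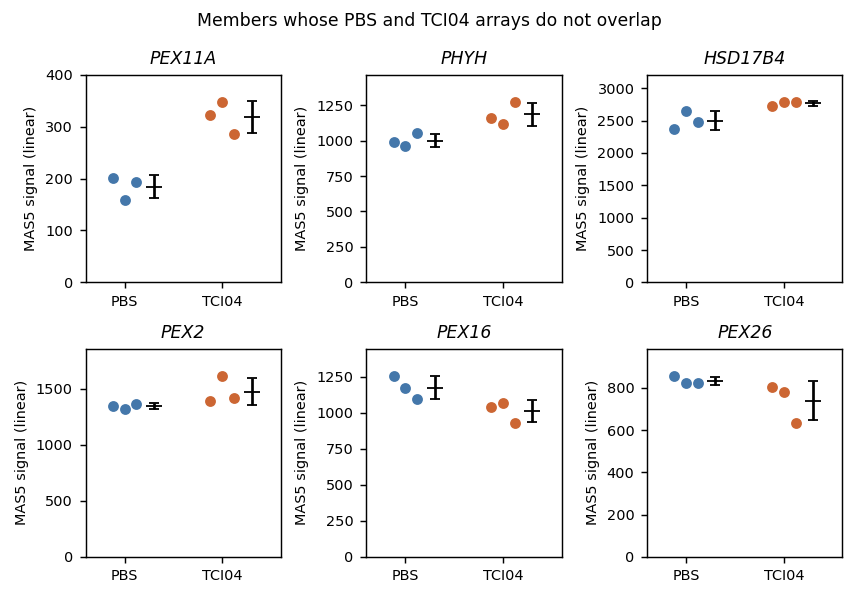
MAS5 signal on a linear axis from 0 for the 6 members whose PBS and TCI04 arrays do not overlap, with 1 point per array and the mean ± SD of 3 arrays in black. The gap between groups is wide for PEX11A (highest PBS array 201, lowest TCI04 array 286) and narrow for PEX2 (1368 and 1391).

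Beta-oxidation in peroxisomes removes units from fatty acids that mitochondria handle poorly. HSD17B4, the bifunctional protein that acts on branched and very-long-chain substrates, measured 2376, 2652 and 2475 with PBS and 2718, 2788 and 2792 with TCI04. Every TCI04 array was higher, the nearest pair being PBS replicate 2 and TCI04 replicate 1. The log2 fold change was 0.15, its 95% interval -0.001 to 0.29 (limma, adjusted p = 0.697), and 0.14 without TCI04 replicate 3. EHHADH, the other bifunctional protein and a known PPAR target, measured 132, 109 and 144 with PBS and 147, 138 and 163 with TCI04. Only TCI04 replicate 2 fell inside the PBS range, and the log2 fold change of 0.21 had an interval from -0.20 to 0.62. It was 0.11 without PBS replicate 2.

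The remaining enzymes of this route showed no separation of the groups. The thiolase ACAA1 had means of 882 ± 69.6 and 870 ± 62.1 and the isomerase ECI2 of 2788 ± 181 and 2794 ± 22.7 (SD, n = 3 arrays each), with log2 fold changes of -0.02 and 0.005. The branched-chain oxidase ACOX3 had a log2 fold change of -0.13, with intervals that reached from -0.68 to 0.41. The racemase AMACR gave 0.21, carried by TCI04 replicate 2 at 101 when the other 5 arrays lay between 46.6 and 57.8. The dienoyl-CoA reductase DECR2 ranged from 54.1 to 186 with PBS and from 51.1 to 214 with TCI04. Its interval of -0.89 to 1.23 was the widest among the members and allowed a change of over 1.5-fold in either direction.

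PHYH, which starts the alpha-oxidation of phytanic acid and is deficient in most patients with Refsum disease, had the next smallest p after PEX11A. It measured 987, 960 and 1054 with PBS and 1160, 1118 and 1274 with TCI04. All 3 TCI04 arrays were higher, and TCI04 replicate 3 was the highest. The means were 1000.2 ± 48.5 and 1184 ± 80.5 (SD, n = 3 arrays each), a ratio of 1.18. Its log2 fold change was 0.24 ± 0.08 (standard error), the 95% interval 0.05 to 0.43 (limma, adjusted p = 0.697). It was 0.19 without TCI04 replicate 3, and PHYH had 1 probe set, so no other reading of the gene was at hand. PECR, which reduces enoyl-CoA in chain elongation, gave 0.16 with an interval from -0.23 to 0.55, and 0.10 in its other probe set. Single arrays set its size, with 0.01 without TCI04 replicate 2, 0.04 without PBS replicate 3, 0.295 without TCI04 replicate 1 and 0.33 without PBS replicate 2.

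Ether lipid synthesis begins with GNPAT and AGPS inside peroxisomes and uses fatty alcohols made by FAR1 at the membrane. AGPS measured 2596, 2190 and 2520 with PBS and 2737, 2567 and 2603 with TCI04, giving a log2 fold change of 0.12 with groups that overlapped in PBS replicate 1, and 0.04 without PBS replicate 2. Of its other probe sets, 1 gave 0.16 and 2 gave -0.07 and -0.11. The last of these ran 1829, 1705 and 1724 against 1650, 1641 and 1572, with no overlap in the opposite direction. FAR1 measured 3568, 3262 and 3120 with PBS and 3814, 3170 and 3809 with TCI04, giving a log2 fold change of 0.11. It was 0.07 without PBS replicate 3, TCI04 replicate 1 or TCI04 replicate 3, and 0.20 without TCI04 replicate 2. TCI04 replicate 2 lay in the PBS range while the other TCI04 arrays lay above it, and the remaining probe sets gave 0.14 and -0.09. GNPAT had means of 2628 ± 419 and 2510 ± 273 (SD, n = 3 arrays each), a log2 fold change of -0.06.

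CAT encodes catalase, which splits hydrogen peroxide. It measured 4220, 4717 and 4757 with PBS and 4494, 4832 and 4871 with TCI04. The groups overlapped, and the log2 fold change was 0.05 with a 95% interval from -0.10 to 0.20, which lies within a 1.5-fold change in both directions. The other probe sets gave 0.06 and 0.13.

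Carriers bring substrates and cofactors across the membrane. ABCD3, which imports branched-chain and bile acid precursor acyl-CoAs, measured 10830, 8804 and 9196 with PBS and 11036, 9271 and 10250 with TCI04. PBS replicate 1 and TCI04 replicate 1 were both high, and the log2 fold change was 0.09, against -0.09 in the other probe set. Leave-one-out values of ABCD3 went from 0.03 without PBS replicate 2 or TCI04 replicate 1 to 0.175 without PBS replicate 1, with 0.06 without PBS replicate 3 and 0.15 without TCI04 replicate 2. SLC25A17, a carrier of coenzyme A and other cofactors, measured 1414, 1253 and 1320 with PBS and 1398, 1285 and 1236 with TCI04, giving a log2 fold change of -0.02. Its other probe set, at 497, 403 and 425 against 500, 480 and 508, gave 0.17. ABCD4, a relative of ABCD3 that acts in vitamin B12 export from lysosomes, gave 0.06, the channel protein PXMP2 gave -0.03 and the membrane protein PXMP4 gave -0.15, with overlapping groups in all 3. PXMP4 gave -0.04 without TCI04 replicate 1 and -0.24 without TCI04 replicate 3, and ABCD4 gave 0.01 without the latter, 0.03 without PBS replicate 3 and 0.13 without TCI04 replicate 2.

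By role and with the deposited scaling, the 11 measured peroxins were split between 5 with higher and 6 with lower means (median -0.004), and 4 of them did not overlap between groups (36.4%, against 13.6% of all genes). Of the 18 enzymes, transporters and other membrane proteins, 12 had higher and 6 lower means (median 0.08), and 2 did not overlap (11.1%). The 95% interval lay within a 1.5-fold change in both directions for 23 of the 29 members (79.3%), against 66.5% of all genes. The 6 exceptions were PEX6, PEX11A, ACOX3, EHHADH, AMACR and DECR2, and only PEX11A and DECR2 had intervals that reached beyond a 2-fold change.

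Probe sets of the same gene gave a second reading for 20 members. For 11 of these all tested probe sets had the sign of the brightest, for 4 some did and for 5 none did. Among the 56 tested probe sets of the members, 10 did not overlap between groups, or 17.9%, against 13.9% of all 26502 tested probe sets with a single gene.

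**Figure D4:**
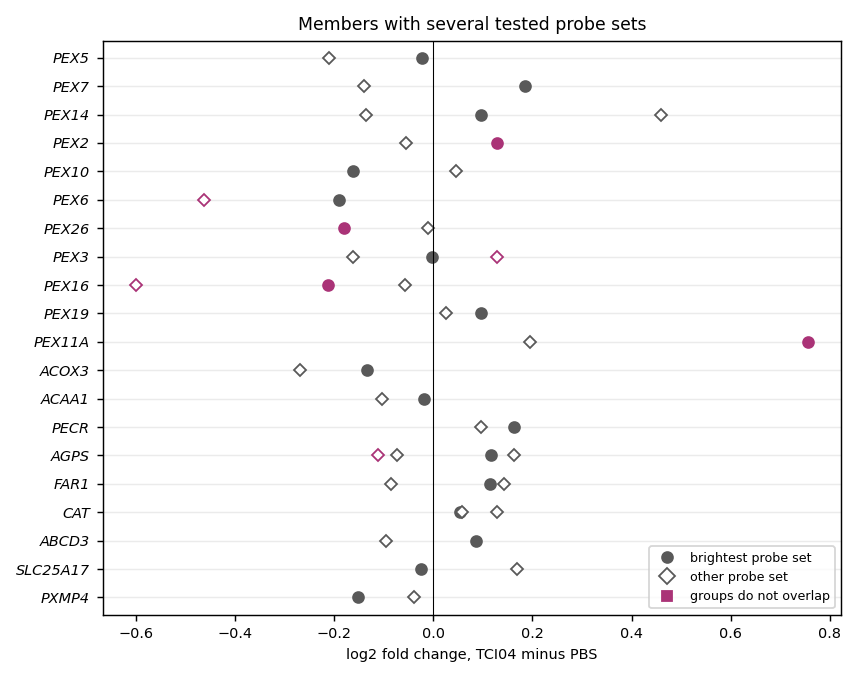
Log2 fold change, TCI04 minus PBS, of every tested probe set of the 20 members with several; filled circles are the brightest probe set, open diamonds the others, and purple marks groups that do not overlap. All points of PEX16 lie below 0 and both of PEX11A above it, while those of PEX3, AGPS and FAR1 lie on both sides.

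The other genes of the pathway were taken from a list by role, which was not limited to proteins found only in peroxisomes. Of 58 such genes with a probe set, 46 were tested and 0 passed in limma. At an unadjusted p under 0.05 there were 1 higher and 1 lower, 4.35% against 7.05% of all genes. Higher means numbered 25 and lower means 21 (54.3% higher, against 49.4% of all genes, median 0.01). Groups did not overlap for 4 of the 46 (8.7%, against 13.6% of all genes). MFF, a receptor for the fission GTPase on peroxisomes and mitochondria, was higher with a log2 fold change of 0.11, and its partners FIS1 and DNM1L gave -0.06 and -0.04. ATAD1, an ATPase that removes misplaced proteins from peroxisomal and mitochondrial membranes, measured 3898, 3965 and 3815 with PBS and 4322, 4155 and 4270 with TCI04, giving a log2 fold change of 0.13. DDO, the aspartate oxidase, gave 0.26. MVK, the mevalonate kinase, was lower at -0.47, at 636, 531 and 513 with PBS and 407, 403 and 391 with TCI04. Each of these 4 failed the correction (adjusted p from 0.697 to 0.717 in limma). PEX39 gave 0.08, and PEX11G and PEX5L lay below the filter. Also below it, ACOT4 was lower in all 3 TCI04 arrays, at signals of 2.57 to 45.4 on all arrays.

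Nuclear receptors and coactivators that act on these genes had 3 higher and 7 lower means of 10 (30% higher, against 49.4% of all genes). In limma 0 passed, also at an unadjusted p under 0.05 (7.05% of all genes). PPARA gave 0.23, from 265, 344 and 320 with PBS and 339, 345 and 406 with TCI04, with overlapping groups. PPARD and PPARG gave -0.008 and 0.002. Of 10 tested PPAR targets outside peroxisomes, 8 had higher means (80%, against 49.4% of all genes, median 0.07). Of these 10, 0 passed in limma or at an unadjusted p under 0.05. ANGPTL4, a secreted lipase inhibitor, was the 1 whose groups did not overlap (10%, against 13.6% of all genes). It measured 50.3, 81.5 and 68.5 with PBS and 120, 96.1 and 89.6 with TCI04. The log2 fold change of ANGPTL4 was 0.55 (limma, adjusted p = 0.697). CD36, below the filter, was lower in all TCI04 arrays at signals of 1.86 to 53.8.

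**Figure D5:**
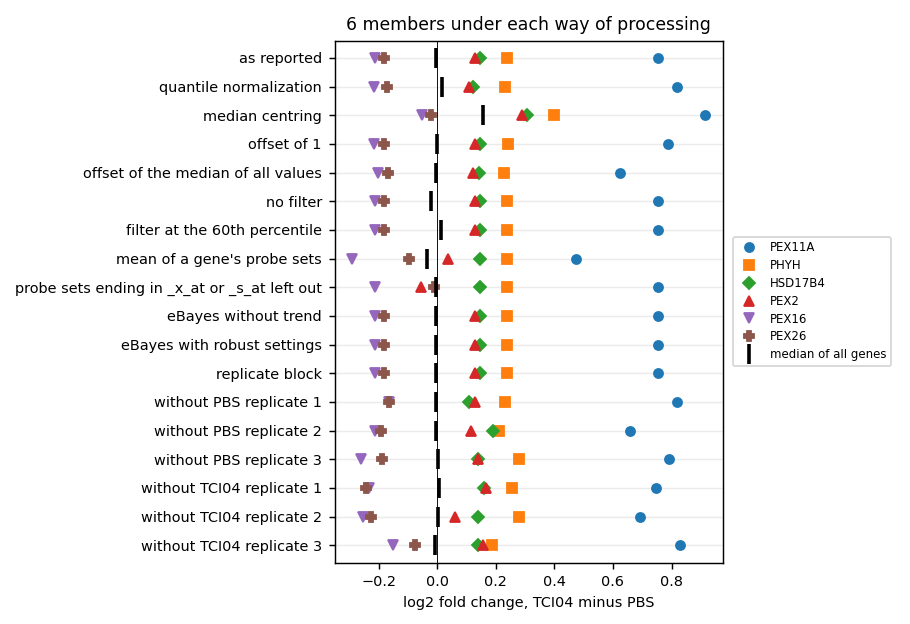
Log2 fold change, TCI04 minus PBS, of the 6 members without overlap as reported and under 17 other ways of processing, with the median of all genes as a black bar. PEX11A stays between 0.475 and 0.915 and PHYH between 0.187 and 0.40. PEX2 turns to -0.055, read from a dimmer probe set, when those ending in _x_at or _s_at are left out.

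The scaling of the arrays bore on these values. Under the shared trimmed mean, the median signal of an array was 64.0 to 74.3 with PBS and 58.9 to 59.8 with TCI04, without overlap. The part of this difference in the lower values of dim probe sets was not tested. Centring each array on its median shifted the median of all genes to 0.16. Relative to that shift PEX11A at 0.92 and PHYH at 0.40 were still higher, and PEX16 at -0.05 and PEX26 at -0.02 were still lower, but the groups of the latter pair then overlapped. With that centring 13 members did not overlap, against 30.9% of all genes, and 25 of the 29 had a higher mean, against 77.9% of all genes. The 8 members that turned from lower to higher were PEX5, PEX3, ACOX3, ACAA1, GNPAT, SLC25A17, PXMP2 and PXMP4. After quantile normalization 16 members had a higher mean, against 54.9% of all genes. The same 6 members as with the deposited scaling did not overlap, against 12.9% of all genes.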

How the data were processed

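Per the submitters' processing notes, MAS5 made the deposited intensity values, 1 per probe set and array on a linear scale; its version is not given in the sources used here, nor are detection calls or a genome build. The deposited intensity values had 1 trimmed mean on all 6 arrays, so the authors had scaled each array. Of 54675 probe sets, 62 were controls and 41091 others had 1 gene symbol in the platform annotation; the 29 members' IDs matched RefSeq.

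The log2 of each signal plus 10.96 (the table's 20th percentile) was used, which understates changes of dim probe sets. Controls and probe sets below the 40th percentile of mean log2 value (about 33.9 in signal) were dropped; all 29 members passed. The fit used limma 3.58.1 under R 4.3.3, with a trend in eBayes and two-sided tests, and Benjamini-Hochberg adjustment over 32746 probe sets. Intervals of 95% used 10.5 degrees of freedom. Of the steps, only the limma fit was tested on simulated data, with a pass mark only for changes larger than that of any member. The choice of probe set, the overlap of groups and the promoter search were not tested in this way. The members and lists were chosen with earlier results of these data known. Per-array values are given for members without overlap, with the smallest p or highest signal, or with probe sets of differing sign, and for a few others named after their values were seen; other listed genes are named if their groups do not overlap. Deviations of same-numbered arrays from their group means had small positive correlations (0.0036 to 0.0619), against -0.0608 to 0.0092 for arrays of different number. The numbers were not taken as pairs in the main fit, and the replicate block was run as an alternative. The number of arrays limits the precision.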

Additional observations from a re-analysis of the deposited data

How the results depend on the processing

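No member and no other listed gene with a role around peroxisomes passed the adjusted threshold in limma under any of 17 alternatives. The lowest adjusted p of a member was 0.28 (limma), with arrays centred on their medians. Among the 17 was the replicate block, where PEX11A had an adjusted p of 0.411 (limma). There 4 members had an unadjusted p under 0.05, against 8.49% of all genes. The block moved no count by over 1.5 times, and not every array correlated best with its own number. With median centring the members' median was 0.2246, 9 members had an unadjusted p under 0.05 and 13 did not overlap, where all genes had a median of 0.157, 19.4% at an unadjusted p under 0.05 and 30.9% without overlap. Averaging a gene's probe sets left 3 members without overlap, against 14.1% of all genes, among them neither PEX11A nor PEX16. With single arrays left out, the median ranged from 0.014 to 0.0698 and the members without overlap from 7 (without PBS replicate 2) to 11 (without TCI04 replicate 2), where 22.2% to 26.5% of all genes did not overlap since 2 arrays separate more easily from 3.

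Of the 29 members, 14 had 1 sign under all alternatives in which they were tested, PEX11A, PHYH, HSD17B4, PEX16 and PEX26 among them. The other 15 turned. Quantile normalization gave ECI2 -0.0257. Median centring gave PEX5 0.137, PEX3 0.156, ACOX3 0.0258, ACAA1 0.141, GNPAT 0.0997, SLC25A17 0.135, PXMP2 0.132 and PXMP4 0.00669. Averaged probe sets gave ABCD3 -0.00428 and SLC25A17 0.072. Without _x_at and _s_at probe sets PEX2 gave -0.0547 and SLC25A17 0.169. The cause was not tested. With single arrays left out, the members that turned had ranges of -0.0195 to 0.171 for PEX19, -0.0221 to 0.0579 for ECI2, -0.00228 to 0.0899 for CAT, -0.074 to 0.0204 for SLC25A17, -0.0741 to 0.0756 for PEX3, -0.308 to 0.0757 for ACOX3, -0.0853 to 0.0319 for ACAA1, -0.268 to 0.66 for DECR2, -0.166 to 0.0593 for GNPAT, -0.0744 to 0.00863 for PXMP2, -0.0928 to 0.0388 for PEX5 and -0.101 to 0.379 for AMACR.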
